A study of Rattus norvegicus and Bos taurus with 12 samples.

Results

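The genes of transforming growth factor β (TGF-β), bone morphogenetic protein (BMP) and activin signaling were described in 2 RNA-seq experiments, one on bovine cardiac fibroblasts (Cfib) and one on adult rat ventricular myocytes (ARVM). Members were every listed gene whose symbol begins with TGFB, LTBP, BMP, SMAD, INHB, ACVR, FST, GREM, CHRD, TGIF, BAMBI, NBL1 or GDF and a digit, or names ID2, ID4 or ENG. The same symbol rule also searched for SMURF, LEFTY, NOG, SKI, SKIL, ID1 and ID3, and found none of them in either table. It picked 20 of 2115 listed genes for Cfib and 41 of 7052 listed genes for ARVM, 45 different genes in all. Of these, 16 were listed in both experiments, which is 80.0% of the Cfib members and 39.0% of the ARVM members. In the RefSeq annotation of the rat (GRCr8), 85 protein-coding symbols fit the rule, so 44 of them, Tgfb2, Tgfbr1, Smad2, Smad5, Id1 and Id3 among them, were not listed for ARVM and are not analysed here.

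Ligands of this superfamily bind pairs of type I and type II receptor kinases, which phosphorylate receptor SMADs that enter the nucleus with SMAD4. TGF-β is secreted in a latent complex that latent TGF-β binding proteins (LTBPs) anchor to the matrix, whereas BMPs and activins are held in check outside the cell by antagonists such as follistatin, chordin and the gremlins. Inside the cell, the inhibitory SMADs restrain signaling of the superfamily, the TGF-β branch included. In the heart the TGF-β branch is best known for turning fibroblasts into matrix-producing myofibroblasts.

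The Cfib came from right ventricular free wall biopsies of neonatal calves, 3 control (CO) calves kept at Denver altitude and 3 calves made pulmonary hypertensive (PH) by low atmospheric pressure. They were grown in serum to confluence at low passage and then held serum-free before harvest, so each Cfib library stands for a cultured line from a calf and not for the tissue. ARVM were from healthy adult Sprague Dawley rats, and 3 libraries of freshly isolated cells (control 4, 5 and 6) were set against 3 libraries of cells kept for 7 days in conditioned media from PH Cfib (ha2, ha209 and ha211 in their labels). In both species the treatment field of the labels speaks of cow serum, which differs from this description, and the groups are called here as the study's methods call them. No library of ARVM cultured without PH-CM was analysed, so time in culture and the conditioned media cannot be told apart. The labels do not say that the ARVM libraries came from separate rats, so their p-values measure only the spread between these libraries.

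Both tables hold only genes that had been selected for a difference between their groups. Every listed gene therefore had groups that do not overlap (100% in each experiment), and 97.5% of listed genes for Cfib and 97.6% for ARVM were called at an adjusted p under 0.05 by limma on log2(value + 1). That every member was called, 20 of 20 in Cfib and 41 of 41 in ARVM, is thus a property of the tables and says nothing about the pathway, and the sizes and directions below are the description. For Cfib each value is a signal whose scaling was not settled and whose depth is unknown. The ARVM values are read counts divided by a size factor, with 12122463 to 18842171 reads on the listed genes per library, and they are not scaled by length, so levels are compared between genes in neither experiment. Correlations of log2 values between libraries of a group were 0.976 to 0.993 for CO, 0.997 to 0.998 for PH, 0.974 to 0.978 for control ARVM and 0.983 to 0.989 for PH-CM, and the median coefficient of variation was 13.7% in CO against 5.01% in PH.

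In Cfib, 18 of the 20 members were higher in PH and 2, FSTL3 and TGFBI, were lower. Over all listed genes, 58.2% were called higher and 39.4% lower. The median log2 fold change of the members was 0.71, against 0.33 over all listed genes, and 10 of the 20 (50%) changed by at least 1 on the log2 scale, against 34.1% of all listed genes. The median log2 fold change was 1.92 for the 3 ligands, 1.32 for the 4 SMADs, 0.79 for the 4 antagonists and 0.54 for the 5 receptors.

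**Figure D1:**
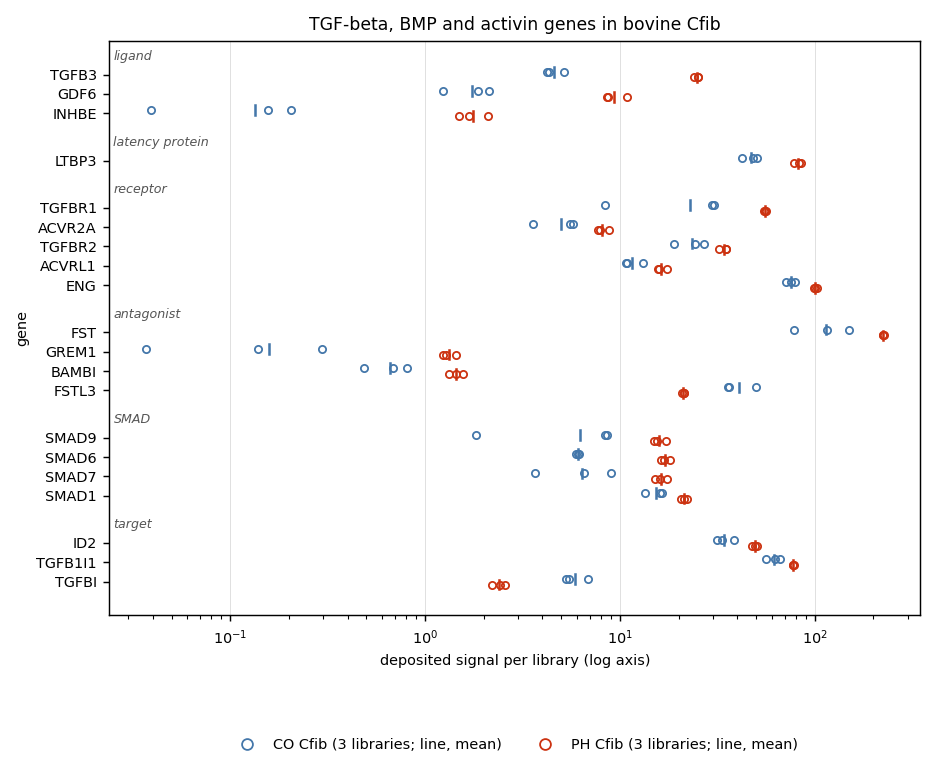
Signal of the 20 members in each Cfib library, on a log axis, with 1 point per library (3 CO, 3 PH) and members ordered by role. The PH points of FST nearly coincide at 225 (SD 0.438), and the low CO points of TGFBR1 and SMAD9 both belong to CO 3.

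TGFB3, a TGF-β isoform, was the ligand with the largest log2 fold change when 1 was added to the signal. Its signal was 4.21, 5.14 and 4.34 in CO 1, 2 and 3 and 25.0, 25.2 and 24.0 in PH 1, 2 and 3. The PH libraries lay close together and far above all CO libraries, a 5.42-fold difference between means (log2 fold change 2.21, SE 0.09, limma adjusted p = 4.59e-06). GDF6, a BMP-type ligand, had signals of 1.87, 2.13 and 1.23 in CO and 10.9, 8.68 and 8.53 in PH. It rose by a similar factor, 5.37-fold (log2 fold change 1.92, SE 0.16, limma adjusted p = 7.04e-05). INHBE, an activin β subunit, was close to 0 in CO, at 0.205, 0.156 and 0.0391, and stood at 1.68, 1.495 and 2.11 in PH. Its log2 fold change of 1.28 (SE 0.11, limma adjusted p = 8.46e-05) depends on the pseudocount, being 3.06 with 0.1 added (TGFB3 2.42) and 0.21 with 10 added, because both groups lie near the 1 that was added.

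LTBP3 was the only latency protein listed for Cfib. Its signal was 48.3, 50.3 and 42.2 in CO and 85.1, 82.5 and 78.3 in PH, a 1.75-fold difference between means (log2 fold change 0.80, SE 0.08, limma adjusted p = 0.000171).

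All 5 listed receptors were higher in PH. The signal of TGFBR1, the type I receptor for TGF-β, was 30.4, 29.8 and 8.39 in CO and 56.4, 54.8 and 55.7 in PH. The CO group was split, with CO 3 far below the other two, and without CO 3 the log2 fold change was 0.87 in place of 1.44 (SE 0.46, limma adjusted p = 0.0191). Leaving out PH 1 or PH 3 raised the adjusted p of TGFBR1 to 0.0523 and 0.0505. For its type II partner TGFBR2, the signal was 24.2, 27.0 and 19.0 in CO and 35.0, 35.1 and 32.4 in PH (log2 fold change 0.54, SE 0.13, limma adjusted p = 0.00607). ACVR2A, a type II receptor for activins and BMPs, had signals of 5.71, 5.57 and 3.60 in CO and 8.78, 7.73 and 7.89 in PH. Here too CO 3 was the lowest library, and the log2 fold change was 0.63 (SE 0.16, limma adjusted p = 0.00801). ACVRL1 and ENG, the type I receptor and the co-receptor best known from endothelium, rose least. The ACVRL1 signal was 13.1, 10.7 and 10.9 in CO and 15.9, 15.7 and 17.4 in PH (log2 fold change 0.47, SE 0.09). That of ENG was 75.3, 79.4 and 71.2 in CO and 103, 100 and 99.1 in PH (log2 fold change 0.42, SE 0.06). With limma both passed, at adjusted p values of 0.00329 and 0.000823. For Cfib 0 of 9 endothelial markers were listed, which does not show their absence, because genes without a difference were not listed.

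Among the antagonists, 3 rose and 1 fell. FST (follistatin, which binds activins) had signals of 77.8, 150 and 115 in CO and 225 in each PH library. The CO libraries were spread widely while the PH libraries were nearly equal, and the means differed 1.97-fold (log2 fold change 1.02, SE 0.22, limma adjusted p = 0.00433). FSTL3, a follistatin-related activin binder, went the other way, with signals of 36.5, 35.9 and 49.7 in CO and 20.8, 21.2 and 21.2 in PH. Its log2 fold change was -0.90 (SE 0.13, limma adjusted p = 0.000719), so the related FST and FSTL3 moved in opposite directions. GREM1, a secreted BMP antagonist, was 0.139, 0.296 and 0.0370 in CO and 1.28, 1.45 and 1.24 in PH. BAMBI, a kinase-less decoy receptor, was 0.684, 0.485 and 0.804 in CO and 1.32, 1.44 and 1.56 in PH. Both had low signals, with log2 fold changes of 1.01 (SE 0.10) for GREM1 and 0.56 (SE 0.10) for BAMBI and limma adjusted p values of 0.000164 and 0.00162. With 0.1 added in place of 1 the log2 fold change of GREM1 was 2.59, and with 10 added it was 0.16.

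All 4 listed SMADs were higher in PH, and 2 of them, SMAD6 and SMAD7, encode the inhibitory SMADs. SMAD6 had the tightest CO values, 5.97, 6.07 and 6.17, against 18.0, 16.8 and 16.3 in PH. That 2.81-fold difference gave a log2 fold change of 1.35 (SE 0.07, limma adjusted p = 1.24e-05). SMAD7 was 6.52, 8.97 and 3.68 in CO and 16.0, 17.3 and 15.1 in PH (log2 fold change 1.28, SE 0.26, limma adjusted p = 0.00347). SMAD1 and SMAD9, receptor SMADs of the BMP branch, also rose. The SMAD9 signal was 8.38, 8.57 and 1.83 in CO and 17.2, 14.9 and 15.5 in PH, with CO 3 again far below the others. Its log2 fold change was 1.41 (SE 0.46, limma adjusted p = 0.0220) and 0.83 without CO 3, and leaving out PH 1 or PH 3 raised the adjusted p to 0.0633 or 0.0547. For SMAD1 the signal was 16.5, 16.1 and 13.4 in CO and 22.1, 21.2 and 20.6 in PH, a smaller rise (log2 fold change 0.45, SE 0.09, limma adjusted p = 0.00329).

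Of the 3 target genes in Cfib, 2 rose and 1 fell. ID2, an inhibitor of DNA binding induced by BMPs, was 33.2, 31.5 and 38.3 in CO and 50.8, 47.8 and 49.3 in PH (log2 fold change 0.51, SE 0.08, limma adjusted p = 0.00124). TGFB1I1, a focal adhesion adaptor induced by TGF-β, was 62.7, 66.6 and 56.2 in CO and 77.1, 77.0 and 78.4 in PH (log2 fold change 0.32, SE 0.07, limma adjusted p = 0.00525). TGFBI, a secreted matrix protein named for its induction by TGF-β, was 5.30, 6.85 and 5.47 in CO and 2.20, 2.43 and 2.57 in PH. TGFBI was thus lower in PH (log2 fold change -1.01, SE 0.11, limma adjusted p = 0.000246), while TGFB3 was higher.

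Many of the smaller Cfib rises, and the larger one of SMAD9, depended on how libraries were put on a common scale. When the Cfib libraries were rescaled by the median of ratios, the median log2 fold change over all listed genes shifted down by 0.27, calls over all listed genes went from 1230 higher and 833 lower to 840 higher and 869 lower, and 13 members stayed called, 11 of them higher. SMAD1, SMAD9, ACVR2A, ACVRL1, ENG, TGFBR2 and TGFB1I1 were the 7 that no longer passed. For SMAD9 the log2 fold change went from 1.41 to 1.16 (limma adjusted p = 0.0537). The ratios were taken over listed genes only, all selected for a difference, so this scale assumes no typical change among them. The PH libraries resembled each other more than the CO libraries did. The limma fit pools the spread of both groups, so the Cfib calls rest partly on these close PH libraries. Averaging the PH libraries to 1 library left the log2 fold changes as they were, with SMAD9 at 1.41. That 1 library is then assumed to vary as the CO libraries do, so the calls of this fit are not given. The pseudocount sets the size of the lower genes, and with 10 added the log2 fold change was 1.25 for TGFB3, 0.72 for GDF6, 0.75 for SMAD6, 0.70 for SMAD9 and 0.10 for BAMBI, all still called.

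In ARVM, 33 of the 41 members were higher in PH-CM and 8 were lower, against 53.9% called higher and 43.7% called lower over all listed genes. The median log2 fold change was 1.21 for the members and 0.37 for all listed genes, and 27 of the 41 (65.9%) changed by at least 1 on the log2 scale, against 48.5%. Secreted members made up most of the rises: all 12 ligands, all 3 latency proteins and 9 of the 10 antagonists were higher, with median log2 fold changes of 2.32, 3.34 and 3.81. Receptors were split, 3 higher and 3 lower, and 3 of the 4 SMADs were lower. In bulk RNA, fewer cells of a type and less RNA per cell cannot be told apart. Cell type markers moved along with the groups. All 10 fibroblast markers were higher in PH-CM, from a summed normalized count of 1896 to 2580 in control libraries to 83260 to 124450. Most of the PH-CM sum came from Col1a1, Col1a2 and Col3a1 (means 17090, 19902 and 42453), which are also TGF-β target genes. All 8 listed of 9 cardiomyocyte markers were lower, from 1265842 to 1336009 down to 87909 to 103440. The part of these cell types in the changes of the members was not tested.

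**Figure D2:**
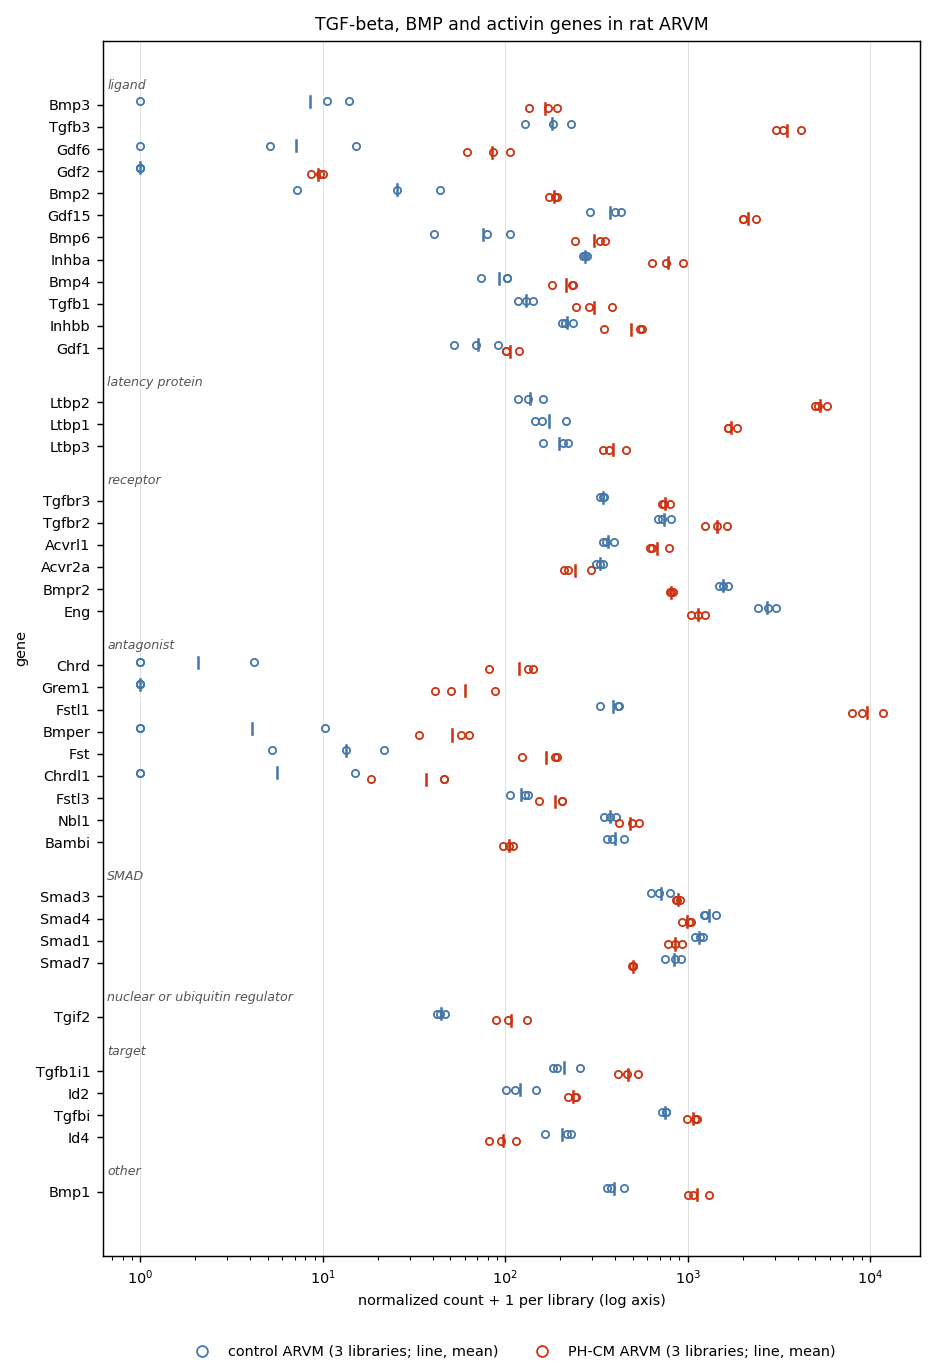
Normalized counts (+ 1) of 40 of the 41 members in each ARVM library, on a log axis, with 1 point per library (3 control, 3 PH-CM) and members ordered by role. Ligands, latency proteins and antagonists other than Bambi lie to the right in PH-CM, and Gdf2 and Grem1 had 0 reads in all 3 control libraries.

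Tgfb3 had 182, 228 and 127 normalized counts in control 4, 5 and 6 and 3308, 3033 and 4187 in ha2, ha209 and ha211. All PH-CM libraries were above all control libraries by more than the spread within either group, and the means differed 19.6-fold (log2 fold change 4.31, SE 0.21, limma adjusted p = 1.14e-06). Tgfb1, the isoform most studied in fibrosis, rose less, from 117 to 141 in control to 242 to 382 in PH-CM (log2 fold change 1.21, SE 0.21, limma adjusted p = 0.000824). Among the BMP ligands, Bmp3 had normalized counts of 9.50, 12.9 and 0 in control and 134, 170 and 190 in PH-CM, and Gdf6 had 14.2, 0 and 4.13 in control and 84.7, 60.4 and 105 in PH-CM. These rested on few control reads, 18 against 599 for Bmp3 and 13 against 306 for Gdf6, giving ratios of 23.0 (95% counting interval 14.4 to 39.1) and 16.3 (9.38 to 30.9). A single control library moved their log2 fold changes, that of Bmp3 from 4.96 to 3.77 without control 6 and 5.66 without control 5, and that of Gdf6 from 4.27 to 3.22 without control 5 and 5.18 without control 4. Such intervals cover counting error only.

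The other BMP ligands also rose. The log2 fold changes were 3.20 (SE 0.60) for Bmp2, 2.12 (SE 0.36) for Bmp6 and 1.22 (SE 0.22) for Bmp4, and that of Bmp2 was 2.46 without control 6. Gdf2, the circulating ligand of Acvrl1, had 0 reads in the control group and 31 in PH-CM, 7.15-fold higher against an assumed floor of 3 reads over the group. A ratio to this floor takes the PH-CM reads as exact, so it is not a lower limit with counting error. Gdf15, a stress-induced hormone of the same superfamily, rose from 291 to 431 in control to 2004 to 2358 in PH-CM (log2 fold change 2.52, SE 0.15, limma adjusted p = 2.98e-06). The activin subunit genes Inhba and Inhbb had log2 fold changes of 1.49 (SE 0.15) and 1.13 (SE 0.20). Inhba stood at 265 to 278 in control and 632 to 934 in PH-CM, and Inhbb at 204 to 233 and 347 to 563. Gdf1 was the weakest ligand, with 51.7 to 90.0 in control and 99.9 to 117 in PH-CM (log2 fold change 0.62, SE 0.27, limma adjusted p = 0.0495). It passed in 4 of 14 alternatives, with adjusted p between 0.01997 and 0.139, and its span overlaps Cers1 and Upf1 in the annotation, so reads of these genes may be shared.

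The latency proteins, a role given here to every LTBP by its symbol, held the largest change at high counts, that of Ltbp2 alone. Ltbp2, a matrix protein of the LTBP family, had 131, 161 and 117 normalized counts in control and 4987, 5139 and 5790 in PH-CM. The gap between groups was 38.9-fold between means (log2 fold change 5.28, SE 0.13, limma adjusted p = 8.87e-08). Ltbp1, which binds latent TGF-β covalently, went from 144, 213 and 158 to 1668, 1851 and 1650 (log2 fold change 3.34, SE 0.15, limma adjusted p = 7.90e-07). Ltbp3 went from 160, 221 and 206 to 340, 457 and 370, and its PH-CM libraries cleared the highest control library by less (log2 fold change 0.99, SE 0.18, limma adjusted p = 0.00118).

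Of the 6 receptors, 3 rose and 3 fell. Tgfbr3 (betaglycan), a co-receptor that presents TGF-β, had normalized counts of 342, 348 and 331 in control and 720, 736 and 802 in PH-CM (log2 fold change 1.14, SE 0.09, limma adjusted p = 1.46e-05). Tgfbr2 had 809, 687 and 723 in control and 1450, 1243 and 1643 in PH-CM (log2 fold change 0.96, SE 0.11, limma adjusted p = 0.000126). Acvrl1 had 392, 342 and 355 in control and 617, 636 and 785 in PH-CM (log2 fold change 0.90, SE 0.12, limma adjusted p = 0.000270). These rises were each close to a doubling. Eng, the co-receptor that works with Acvrl1, moved the other way, from 2751, 3031 and 2410 in control to 1044, 1143 and 1235 in PH-CM (log2 fold change -1.26, SE 0.10, limma adjusted p = 1.34e-05). Bmpr2, the BMP type II receptor mutated in heritable pulmonary arterial hypertension, fell from 1481 to 1653 in control to 800 to 828 in PH-CM (log2 fold change -0.94, SE 0.07, limma adjusted p = 7.73e-06). Of the 9 endothelial markers, 8 were lower and 1, Emcn, was higher in PH-CM, and their summed level went from 10417 to 12623 down to 4150 to 4735. The part of endothelial RNA in the values of Eng, Bmpr2 and Acvrl1 was not tested. Acvr2a had normalized counts of 313, 328 and 341 in control and 219, 295 and 210 in PH-CM (log2 fold change -0.46, SE 0.16, limma adjusted p = 0.0261). Its call was the least stable of the receptors, with adjusted p between 0.0594 and 0.0852 when control 5, control 6, ha2 or ha211 was left out, and its span overlaps Orc4.

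The antagonists held large relative rises and the largest fall among the members. Grem1 had 0 reads in all control libraries and normalized counts of 40.1, 49.2 and 87.2 in PH-CM, 49.1-fold higher against the floor of 3 reads. Fstl1, a secreted glycoprotein of the follistatin family, had 411, 331 and 418 in control and 8967, 7935 and 11774 in PH-CM, a 24.7-fold difference (log2 fold change 4.61, SE 0.15, limma adjusted p = 1.96e-07). Bambi, the decoy receptor, was the exception and dropped, from 448, 383 and 357 in control to 104, 96.6 and 109 in PH-CM (log2 fold change -1.92, SE 0.16, limma adjusted p = 1.70e-05). The 250 bases before the RefSeq start of these 3 genes are shown because they gave the highest rise from 0 reads, the largest rise at high counts and the only fall among the antagonists. Capitals mark GGCGCC, the BMP SMAD core element, where a search of both strands found it.
Grem1, GRCr8 chr3:120978320-120978569, minus strand: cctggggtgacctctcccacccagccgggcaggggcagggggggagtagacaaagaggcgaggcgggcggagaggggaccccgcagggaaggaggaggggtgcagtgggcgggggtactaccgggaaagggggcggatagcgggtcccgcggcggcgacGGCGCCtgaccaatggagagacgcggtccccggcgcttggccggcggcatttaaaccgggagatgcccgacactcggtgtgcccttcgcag
Fstl1, GRCr8 chr11:76454054-76454303, minus strand: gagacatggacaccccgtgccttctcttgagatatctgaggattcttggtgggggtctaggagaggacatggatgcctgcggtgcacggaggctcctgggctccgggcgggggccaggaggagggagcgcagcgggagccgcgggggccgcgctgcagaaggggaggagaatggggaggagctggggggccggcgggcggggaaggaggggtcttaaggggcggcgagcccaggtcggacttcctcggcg
Bambi, GRCr8 chr17:58821004-58821253, minus strand: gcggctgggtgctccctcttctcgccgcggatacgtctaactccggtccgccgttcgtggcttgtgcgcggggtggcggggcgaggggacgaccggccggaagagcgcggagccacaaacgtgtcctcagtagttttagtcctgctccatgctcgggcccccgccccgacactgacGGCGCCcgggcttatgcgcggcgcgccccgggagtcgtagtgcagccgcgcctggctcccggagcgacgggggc

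The Grem1 and Bambi windows each held 1 GGCGCC, 91 to 86 and 74 to 69 bases before the start, and the Fstl1 window held none. Their GC contents were 72.0%, 70.0% and 72.4%, in the order Grem1, Fstl1, Bambi, against a median of 51.2% over 33469 RefSeq rat promoters. Of the 41 ARVM members, 35 matched a promoter by symbol, and GGCGCC was found in 9 of them (25.7%), against 8.69% of all promoters of the same length. Those 9 were Bambi, Bmper, Chrd, Grem1, Inhbb, Nbl1, Smad7, Tgfbi and Tgfbr3, of which Bambi and Smad7 were lower in PH-CM and the other 7 were higher. The short SMAD motif CAGAC, read on both strands as CAGAC or GTCTG, was in 8 of the 35 (22.9%) and in 42.9% of all promoters, and the palindrome GTCTAGAC was in 0 of the 35 and in 0.173% of all. Members were counted once per gene, by a match in any of its promoters, whereas the share over all promoters counts each promoter singly. These shares thus differ in unit, and the GC content of the member promoters as a set was not measured. A match is a description of letters in a GC-rich window. The genome build of these windows differs from the rn6 build to which the reads were aligned.

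Chordin and several other antagonists had few reads in control ARVM. Chrd had normalized counts of 0, 3.21 and 0 in control and 140, 80.2 and 132 in PH-CM, that is 3 reads against 434, a ratio of 100 with a wide counting interval of 34.0 to 487 and all control reads in control 5. Without control 5 its fitted log2 fold change of 6.15 was 6.85. Fst had 20.6, 4.28 and 12.4 in control and 187, 192 and 123 in PH-CM, or 29 against 614 reads, a ratio of 14.6 (10.1 to 22.1). Bmper, a chordin-like BMP modulator, had 9 against 186 reads (ratio 14.3, 7.37 to 31.8), and all control reads were in control 6, without which its fitted log2 fold change went from 4.51 to 5.63. Chrdl1 had 13 against 133 reads (ratio 7.08, 3.999 to 13.6), with all control reads in control 5, and its fitted log2 fold change of 3.78 was 5.08 without control 5 and 3.13 without control 4 or control 6. The remaining antagonists were well counted and rose less. Fstl3 had 104, 133 and 127 in control and 152, 204 and 204 in PH-CM (log2 fold change 0.61, SE 0.20, limma adjusted p = 0.0198). Nbl1, a secreted BMP antagonist of the DAN family, had a log2 fold change of 0.36 (SE 0.13, limma adjusted p = 0.0252). Both lost their call in leave-one-out fits, Fstl3 without ha209 (0.0622) or ha211 (0.0672), and Nbl1 without control 6 (0.0787), ha2 (0.0922) or ha211 (0.0705).

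The 4 listed SMADs had log2 fold changes between -0.75 and 0.32. Smad7, the inhibitory SMAD, had normalized counts of 752, 854 and 913 in control and 497, 500 and 494 in PH-CM (log2 fold change -0.75, SE 0.09, limma adjusted p = 0.000172). Smad1 went from 1098, 1163 and 1210 to 773, 930 and 845 (log2 fold change -0.45, SE 0.09, limma adjusted p = 0.00170). Smad4, the common partner of the receptor SMADs, went from 1431, 1231 and 1238 to 1034, 926 and 1015 (log2 fold change -0.39, SE 0.09, limma adjusted p = 0.00300). Smad3, a receptor SMAD of the TGF-β branch, was the only SMAD to rise, by 0.32 (SE 0.10, limma adjusted p = 0.0150), from 630 to 801 in control to 862 to 909 in PH-CM. Tgif2, a nuclear co-repressor of SMADs, had 45.9, 42.8 and 41.3 in control and 87.7, 102 and 130 in PH-CM (log2 fold change 1.26, SE 0.25, limma adjusted p = 0.00180).

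Among the targets, Tgfb1i1 had normalized counts of 180, 256 and 190 in control and 461, 413 and 531 in PH-CM (log2 fold change 1.17, SE 0.17, limma adjusted p = 0.000410). Id2 had 112, 99.6 and 146 in control and 240, 218 and 243 in PH-CM (log2 fold change 0.98, SE 0.19, limma adjusted p = 0.00185). Id4, of the same family as Id2, fell, from 165, 229 and 217 to 113, 94.0 and 80.4 (log2 fold change -1.08, SE 0.22, limma adjusted p = 0.00222). These 2 Id genes thus moved in opposite directions. Tgfbi rose from 723, 758 and 761 to 1121, 1096 and 989 (log2 fold change 0.51, SE 0.08, limma adjusted p = 0.000422). Bmp1 shares the BMP name but encodes a procollagen and chordin protease, and it had 378, 358 and 448 in control and 997, 1072 and 1305 in PH-CM (log2 fold change 1.51, SE 0.13, limma adjusted p = 2.29e-05).

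The experiments share no samples and differ in species, cell type and contrast, so the 16 members listed in both are given side by side and their differences were not tested. In 9 (56.2%) the change was upward in both, namely TGFB3, GDF6, LTBP3, TGFBR2, ACVRL1, FST, GREM1, ID2 and TGFB1I1. In 5 (31.2%) it was upward in PH Cfib and downward in PH-CM ARVM, namely ACVR2A, ENG, BAMBI, SMAD1 and SMAD7. FSTL3 and TGFBI, 2 of the 16 (12.5%), were lower in PH Cfib and higher in PH-CM ARVM, and 0 were lower in both. Of the 1178 symbols that both tables list, 42.1% were higher in both, 16.9% were higher in Cfib and lower in ARVM, 27.4% were the reverse and 13.6% were lower in both. TGFB3 had the largest log2 fold change of the 16 in Cfib with 1 added, 2.21, while with 0.1 added GREM1 had 2.59 against 2.42 for TGFB3, and in ARVM its log2 fold change was 4.31 (SE 0.21).

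**Figure D3:**
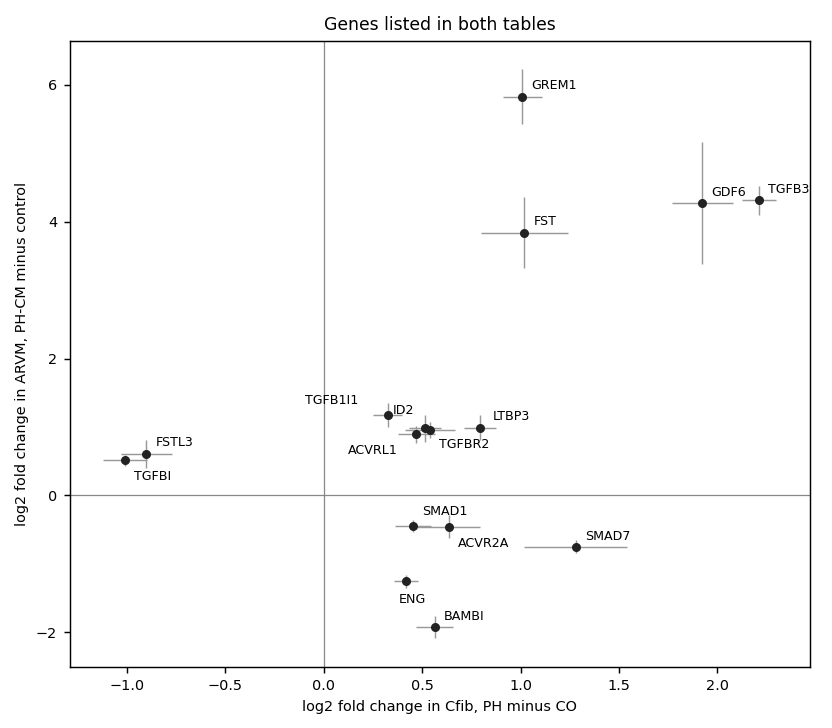
Log2 fold change in Cfib (PH minus CO, horizontal axis) against that in ARVM (PH-CM minus control, vertical axis) for the 16 members listed in both, 1 point per gene, with bars of 1 SE. TGFB3 stands at the upper right (2.21 and 4.31), BAMBI, ENG, SMAD7, SMAD1 and ACVR2A lie at the lower right, and FSTL3 and TGFBI at the upper left, while the height of GREM1 is a fitted value with no control reads.

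Genes that work with the members were read from 5 lists. Over all listed genes, 58.2% were called higher and 39.4% lower in Cfib, and 53.9% and 43.7% in ARVM. The counts below are read beside these shares, and no list was tested as a set. Among TGF-β target genes, 12 of the 20 were listed for Cfib, 10 higher and 2 lower (median log2 fold change 1.38), with POSTN at 3.66, LOX at 2.47 and FN1 at 1.81. CO 3 was the lowest CO library for LOX (169, 138 and 40.4) and FN1 (582, 469 and 156), and without it LOX was 1.84. POSTN, a matricellular protein of activated fibroblasts, had signals of 5.25, 11.9 and 6.19 in CO and 99.7, 106 and 107 in PH. CNN1, a smooth muscle actin-binding protein named after its values were seen, was 1 of the 2 that fell (-0.68). In ARVM 19 of the 20 were listed, 15 higher and 4 lower (median 5.32), with Col1a1 at 8.07, Lox at 7.65 and Col1a2 at 7.13. Lox had control values of 0, 0 and 8.26, so its fitted value rests on control 6 and was 8.72 without it. The Col1a1, Col1a2 and Col3a1 genes are also among the fibroblast markers above. Those that fell were Il11 (-2.18), Pmepa1 (-0.87), Junb (-0.76) and Cyr61 (-0.41), again named after their values were seen. PMEPA1, a SMAD-induced feedback inhibitor, had signals of 7.12, 8.597 and 3.44 in CO Cfib and 19.5, 20.9 and 17.6 in PH Cfib, whereas its normalized counts were 427, 547 and 507 in control ARVM and 269, 223 and 321 in PH-CM. The gene was named after its values were seen.

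BMP target genes were fewer, with 3 of 12 listed for Cfib, all higher (ATOH8 at 1.34, TBX2 at 0.36 and MSX1 at 0.33), and 6 of 12 for ARVM, 3 higher and 3 lower. Runx2, the osteoblast regulator, stood at 4.58, Tbx3 at -2.81 and Hamp, which encodes the iron hormone hepcidin, at -2.31. The control values of Runx2 were 0, 0 and 15.5, and its fitted value was 5.93 without control 6 and 3.91 without control 4 or control 5, while Tbx3 was at -2.11 without ha211. Hamp had 25723 to 28925 normalized counts in control and 4215 to 6110 in PH-CM. Genes of latent TGF-β storage and activation were higher in 5 of 5 listed of 18 in Cfib (median 1.70) and in 10 of 11 in ARVM (median 2.51), where Furin, a proprotein convertase, was the exception at -0.42. The shares called higher over all listed genes were 58.2% in Cfib and 53.9% in ARVM. In Cfib the storage and activation genes were led by MMP9 (2.65), FBN2 (1.94) and THBS1 (1.70), and in ARVM by Fbn1 (4.84) and Thbs1 (4.32). Fbn2 had no control reads in ARVM and was 62.7-fold higher against the floor of 3 reads. THBS1, which can release TGF-β from its latent complex, had signals of 1047, 827 and 407 in CO and 2306, 2321 and 2290 in PH.

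Of 24 other extracellular ligands, binders and co-receptors, 1 was listed for Cfib, the TGF-β-binding proteoglycan BGN (2.55), and 8 for ARVM, 4 higher and 4 lower, with Bgn at 5.80, Dcn at 4.24 and Amh at -3.08 (-4.07 without ha209, the only PH-CM library with Amh reads). Inha, the α subunit that pairs with the β subunits of Inhba and Inhbb to form inhibins in place of activins, was lower, with 1035, 798 and 939 normalized counts in control and 115, 126 and 109 in PH-CM (log2 fold change -2.97, SE 0.14, limma adjusted p = 9.47e-07). It was named after its values were seen. Of 38 other intracellular regulators, 7 were listed for Cfib, 6 higher and 1 lower, with DAB2 at 2.37, MAP3K7 at 0.75 and CAV1 at 0.55. In ARVM 19 were listed, 6 higher and 13 lower (median -0.44), with Rbl1 at 2.30, Ppm1a, a phosphatase of receptor SMADs, at -1.31 and Strap, a partner of SMAD7, at -0.76.

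**Figure D4:**
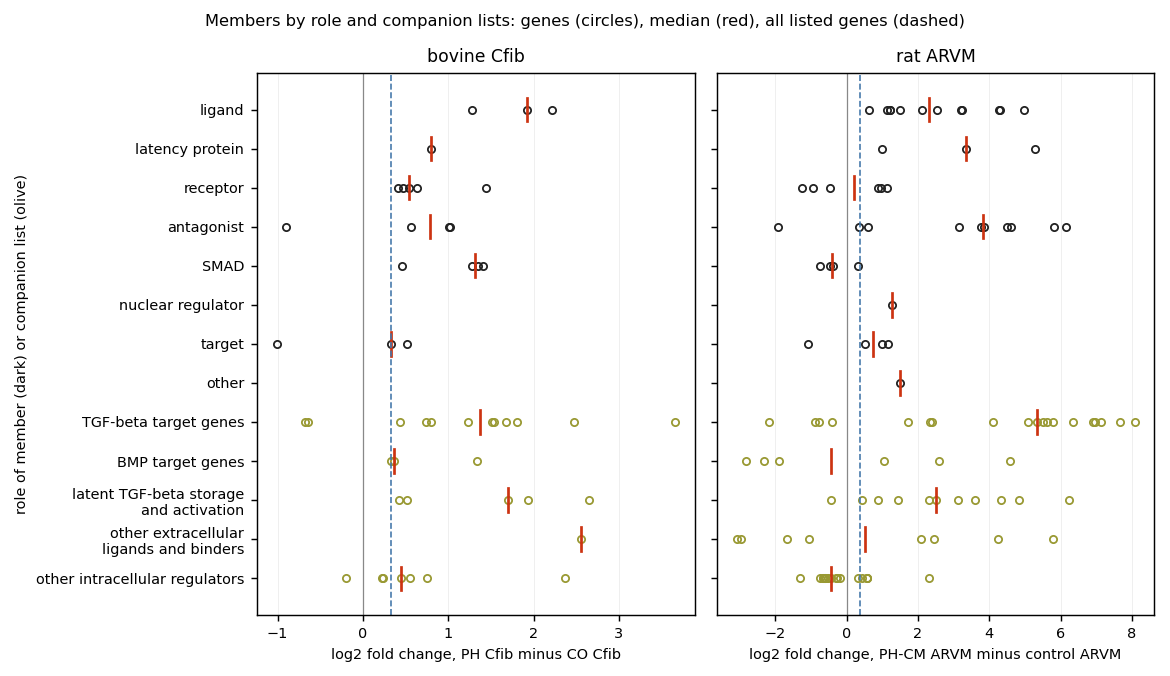
Log2 fold change of each member by role and of each gene in the 5 companion lists, 1 point per gene, for Cfib (PH minus CO) and ARVM (PH-CM minus control), with red bars for the median of each row and a dashed line for the median of all listed genes (0.33 and 0.37). Ligands, latency proteins and the antagonists other than FSTL3 in Cfib and Bambi in ARVM lie above 0, while ARVM receptors, SMADs and intracellular regulators lie on both sides of 0.

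Markers of other cell types were read beside these values. In Cfib, 2 of 10 fibroblast markers were listed, TCF21 and COL1A2, both higher in PH, and 0 cardiomyocyte, endothelial or erythroid markers were listed. A marker that is not listed may still be present, because only genes with a difference were kept. Of 6 mural markers, 4 were listed and higher in PH (RGS5, CSPG4, MYH11 and KCNJ8), with a summed signal of 4.29 to 7.35 in CO and 19.96 to 22.6 in PH. Of 9 leukocyte markers 4 were listed, CD68, C1QA and C1QB higher and CD14 lower, summing to 7.76 to 11.0 in CO and 9.47 to 10.1 in PH, and C1QA and C1QB were listed at 0 in every CO library. In ARVM, all 8 listed of 9 leukocyte markers were higher in PH-CM (summed 211.01 to 327 against 2427 to 3472), mural markers were 3 higher and 3 lower (5348 to 6091 against 6130 to 7096), and the 3 listed of 5 erythroid markers went from a sum of 2097 to 2493 to 0 reads in every PH-CM library. The part of these cell types in the values of the members was not tested.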

How the data were processed

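The 12 RNA-seq libraries were mapped to 4 groups of 3 by their titles. Per the study's methods and the labels, RNA was ribosome-depleted, reads were aligned to bosTau8 or rn6 with HISAT2 and StringTie, and normalized with DESeq2. The deposited tables hold genes the authors kept for a value above 1 in a condition and a p-value under 0.05. They hold no columns of the authors' comparisons. The deposited ARVM signal is a read count over a size factor that all genes of a library share. Every value was a whole multiple of its library's step within 0.01 reads, although the smallest value of library ha211 equals 2 reads. The study describes normalized counts for Cfib too, but the scale of the deposited Cfib signal was not settled (FPKM or TPM are possible).

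After adding 1 and taking log2, the values of each experiment were fitted in limma 3.58.1 under R 4.3.3, using eBayes and its trend option, and p was adjusted over every listed gene by the Benjamini-Hochberg method. Fold changes on this scale understate low genes. On recovered reads, edgeR 4.0.16 and DESeq2 1.42.0 were alternatives. Scripts used Python 3.11.15 and were tested on simulated data. An exact permutation test of 3 against 3 cannot go below 0.1, so none was used. The members and lists were chosen with earlier results of these data known. Values in every library are given for members listed in both experiments and, per role and experiment, for the 3 with the largest change. Other members are given by range or log2 fold change, and 3 genes are named per companion list. Promoters are RefSeq's (GRCr8). Proteomics, imaging and qRT-PCR were not analysed here. Values of 1 ARVM member and of a few other genes are not reported here, although these genes stay in the counts and medians.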

Additional observations from a re-analysis of the deposited data

How the results depend on the processing

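No member changed direction under the 13 alternatives for Cfib and 14 for ARVM. Since the groups of every listed gene do not overlap, only alternatives that rescale the libraries could have reversed a direction. The call was lost in 21 of the member values for Cfib and 19 for ARVM, against 235 and 549 that kept it. In Cfib, 13 members were called after the median of ratios (11 higher), with 1 BMP target and 4 intracellular regulators. With the PH libraries averaged, 10 were called (8 higher), with 7 TGF-β targets, 1 BMP target, 3 latent storage genes, 2 intracellular regulators and 1 fibroblast marker. A minimum mean of 5 left 16 members, 1 of them lower, and 1 BMP target, 0 leukocyte markers and 1 mural marker, since it tests fewer genes. It kept 1576 listed genes and called 1535 of them. Leaving out each library gave 18 to 20 members in Cfib, 37 to 40 in ARVM and 1 to 3 BMP targets in Cfib. The same fits called 1910 to 2052 of all 2115 listed genes for Cfib and 6452 to 6695 of 7052 for ARVM. The member counts were near these shares and say little about the members. A minimum mean of 50 left 35 ARVM members, and edgeR (TMM, or the authors' size factors, chosen after the values were seen) and DESeq2 on reads called 40. Over all listed genes, the minimum mean called 5976 of 6121, and the fits on reads called 6668 to 6820 of 7052. Over all listed genes, calls fell from 2063 to 1709 in Cfib after the median of ratios. The replicate block for Cfib called 20 members and 1983 genes. Same-numbered Cfib libraries had correlated deviations of 0.258, 0.0312 and 0.259, against -0.2455 to 0.102 for differently numbered ones. Whether same-numbered libraries share more than a number was not settled. No paired analysis was possible for ARVM because its groups share no replicate numbers. Depth limits the ARVM members with few control reads (Bmp3, Gdf6, Bmp2, Chrd, Bmper, Fst, Chrdl1), and the Cfib depth is unknown.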
